A study of Mus musculus with 6 samples.

Results

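The troponin genes were examined in RNA-seq libraries of cultured muscle satellite cells (MuSCs), the stem cells of skeletal muscle. The rule named 8 genes, the slow, fast and cardiac forms of troponin C, I and T. Of these, 7 had a row among the 20654 genes of the count table, and 6 had enough counts to be tested. Tnnc2, which encodes fast troponin C, was not analysed here.

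Troponin sits on the actin filament together with tropomyosin and makes contraction of striated muscle depend on calcium. Troponin C binds the calcium, troponin I holds back the contact of myosin with actin, and troponin T ties the complex to tropomyosin. Fast and slow fibres of adult skeletal muscle use separate genes for each subunit. Tnni2 and Tnnt3 encode the fast forms of troponin I and T, Tnni1 and Tnnt1 the slow forms, and Tnnc1 the troponin C of slow muscle and heart. Tnnt2 and Tnni3 encode the cardiac forms, and Tnnt2 is also known to be expressed in embryonic skeletal muscle and in differentiating muscle cells. Proliferating MuSCs have no sarcomeres, and troponin genes are switched on as myoblasts differentiate and fuse.

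There were 3 libraries labelled wild type, which serve as the control, and 3 labelled Piezo1 cKO. Piezo1 encodes a calcium-permeable, mechanosensitive ion channel. MuSCs of C57BL/6 mice were sorted as VCAM1+, CD31-, CD45- and Sca1- cells and cultured for 3 d in medium with 30% FBS and 10 ng/ml bFGF, and 1 µM 4-OH tamoxifen was present in the medium of both groups. According to the methods of the study, the cKO mice were Piezo1 flox/flox and carried Pax7 CreERT2/+, a tamoxifen-inducible Cre driven by the Pax7 gene and thus limited to cells that express Pax7. The control mice carried the same Cre, and the mice were injected with tamoxifen before the cells were taken. The age of the mice behind these 6 libraries was not given in the sources used here.

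A count is 1 unique molecular identifier (UMI), that is 1 cDNA molecule primed at the poly(A) tail. The control libraries held 740936, 931168 and 891531 counts, and the Piezo1 cKO libraries 810096, 726378 and 769295. Levels are given in CPM, the count scaled to a library total of 1e+06, after TMM normalisation. On this scale 1 count was worth 1.12 to 1.44 CPM, and 3 counts, the floor used here, 3.35 to 4.31 CPM. Values in a row are given for replicates 1, 2 and 3 of each group.

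Piezo1 itself had counts of 11, 5 and 6 in control and of 7, 12 and 9 in Piezo1 cKO libraries. The groups overlapped, and the log2 fold change of 0.42 (95% interval -0.49 to 1.33) did not pass the test in edgeR (adjusted p = 0.791). Counts near the 3′ end of a transcript do not check a deletion that lies elsewhere in the gene, so the groups, and with them every direction below, rest on the labels.

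The libraries carried the markers of MuSCs. The 9 MuSC markers, led by Myod1, the myogenic transcription factor, summed to 2931, 2670 and 2830 CPM in the control and to 2933, 2332 and 2666 CPM in the Piezo1 cKO libraries. The MuSC regulator Pax7 was measured at 21.9 ± 7.32 CPM in control and 14.3 ± 6.98 CPM in Piezo1 cKO libraries (SD, n = 3). None of the 8 MuSC markers tested was called by edgeR or DESeq2, and 4 had a positive and 4 a negative log2 fold change, with a median of -0.06. At an unadjusted p under 0.05 in edgeR 1 was higher, against 6.14% of all genes tested, and 2 were lower. These were Cdh15 (log2 fold change 0.53), and Vcam1 (-0.45) and Sdc4 (-0.53), all without overlap. The share of all genes lower at this threshold is not given here, also for the lists below. Of the 6 heart muscle markers only 2 had a row, and they summed to at most 1.44 CPM in any library.

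The promoters of Tnnc1 and Tnnt2 are shown because the first gene had the largest and the second the smallest fold change of the 6 troponin genes tested, and because neither window holds an annotated exon of its gene. Each sequence is the 250 bases before the transcription start in the RefSeq table for GRCm38.p6, read on the plus strand, at chr14:31208062-31208311 for Tnnc1 and chr1:135836084-135836333 for Tnnt2. Capitals mark E-boxes, the CANNTG motif that myogenic bHLH factors such as MYOD1 and myogenin recognise.
Tnnc1: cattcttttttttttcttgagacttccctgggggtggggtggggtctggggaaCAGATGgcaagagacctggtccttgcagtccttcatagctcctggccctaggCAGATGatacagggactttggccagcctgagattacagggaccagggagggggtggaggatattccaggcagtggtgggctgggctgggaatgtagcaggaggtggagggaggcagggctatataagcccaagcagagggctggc
Tnnt2: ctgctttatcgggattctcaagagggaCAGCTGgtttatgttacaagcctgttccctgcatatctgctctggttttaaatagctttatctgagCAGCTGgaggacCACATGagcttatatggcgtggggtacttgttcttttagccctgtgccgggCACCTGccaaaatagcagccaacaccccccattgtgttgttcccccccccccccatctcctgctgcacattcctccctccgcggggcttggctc

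The Tnnc1 window held 2 E-boxes, which began at positions -197 and -145 counted from the start. The Tnnt2 window held 4, at -223, -157, -145 and -94, and those at -223 and -157 read CAGCTG, the form that muscle bHLH factors favour. Both windows also held CATTCC, the core of the MCAT motif bound by TEAD factors, at -58 in Tnnc1 and at -27 in Tnnt2. In Tnnc1 it lies on the other strand and reads GGAATG in the printed sequence. All motifs were searched on both strands. Among 32851 mouse promoter windows of this length, 66.2% held CANNTG, 13.0% held CAGCTG and 12.6% held CATTCC. RefSeq windows were matched for 6 of the 8 genes, and those of Tnni2 and Tnnt3 were not used here. Tnni1 and Tnnt2 each have a second start in the table, and the windows described here are those of the first. The first Tnni1 window held 4 E-boxes, of which the one at -68 read CAGCTG, and the Tnnt1 window held 1, at -158. Those windows share 19 and 29 bases with annotated exons of their genes and are not printed. The exact letters TATAAA, found in 12.4% of promoters, stood at -30 in the Tnnt1 window and in neither the Tnnc1 nor the printed Tnnt2 window. Variants of this box were not searched, and the Tnnc1 window reads tatataag near its end. These matches describe letters in a sequence and were not tested for binding.

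**Figure D1:**
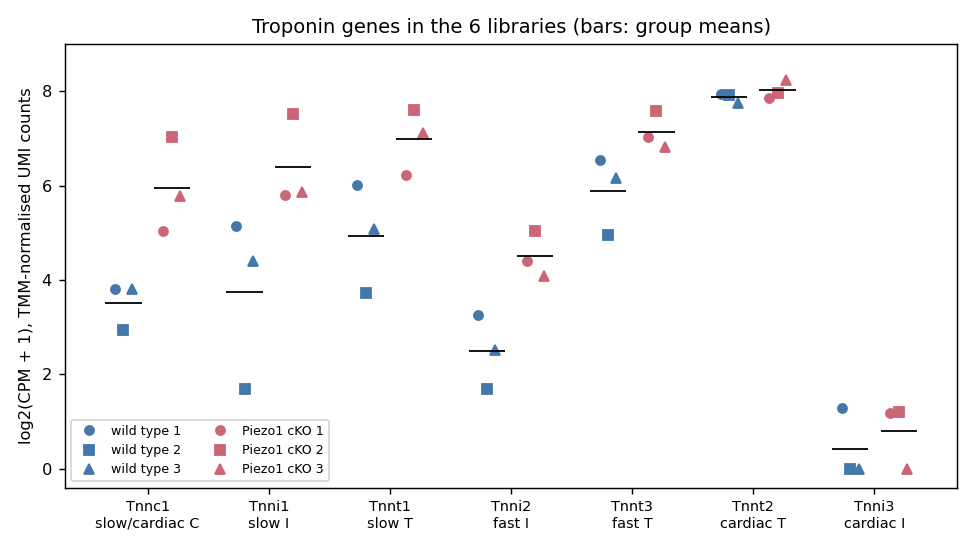
Level of each troponin gene in the 6 libraries, on the y axis as log2(CPM + 1), with the 7 genes on the x axis. Blue symbols are control and red symbols Piezo1 cKO libraries, the symbol shape gives the replicate number and bars are group means. The red symbols of Tnnc1, Tnni1, Tnnt1, Tnni2 and Tnnt3 all lie above the blue ones, whereas those of Tnnt2 and Tnni3 overlap them.

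Troponin transcripts were more abundant in the Piezo1 cKO libraries for 5 of the 6 genes tested, in the sense that every Piezo1 cKO library lay above every control library. Across all 8551 genes tested, 8.20% showed the same absence of overlap in this direction. Only Tnni2 passed the adjusted threshold in edgeR, against a background of 0.468% of genes called higher. At an unadjusted p under 0.05, edgeR found 4 of the 6 higher (Tnnc1, Tnni2, Tnnt1 and Tnnt3), against 6.14% of all genes tested. DESeq2 with its default settings called 0 of the 3 troponin genes to which it gave an adjusted p, against 0.299% of genes called higher, and at an unadjusted p under 0.05 it found 5 of the 7 genes higher, against 1.26% of the 19247 genes to which it gave a p. Because 4 of the 6 genes passed the filter on low counts only through the Piezo1 cKO libraries, these counts are a description of the genes and not support for a change of the family. The filter asked for 12.7 CPM in at least 3 libraries, on counts scaled by the library total without the TMM factors used elsewhere. On that scale Tnnc1 and Tnni2 reached that level in 0 control libraries and Tnni1 and Tnnt1 in 2, while all 4 reached it in each of the 3 Piezo1 cKO libraries. More cells with troponin transcripts and more transcripts per cell in the Piezo1 cKO group cannot be told apart in these bulk libraries.

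Troponin C was represented by Tnnc1, which lies at chr14:31208312-31211729 on the plus strand (GRCm38) and has 6 exons. The control libraries held 9, 6 and 11 counts of Tnnc1 and the Piezo1 cKO libraries 25, 98 and 41. In CPM these were 12.9, 6.69 and 13.0 against 31.7, 129 and 54.3. The control libraries lay close together, and the second Piezo1 cKO library stood far above the first. The mean was 10.9 ± 3.62 in control and 71.8 ± 51.2 CPM in Piezo1 cKO libraries (SD, n = 3), a log2 fold change of 2.72 (SE 0.76, 95% interval 0.76 to 4.69) that did not pass the adjusted test in edgeR (adjusted p = 0.273). The call depended on the fit, since DESeq2 without its filter on mean counts called Tnnc1 (adjusted p = 0.00101) and edgeR called it without the second Piezo1 cKO library (log2 fold change 1.99, adjusted p = 0.0115). Tnnc1 lies within the span of Nisch, a gene on the opposite strand, and whether reads were counted by strand was not given. Nisch had 220, 239 and 244 counts in control and 231, 169 and 204 in Piezo1 cKO libraries, a log2 fold change of -0.14 (edgeR adjusted p = 0.737).

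Both troponin I genes with enough counts were higher in every Piezo1 cKO library, and the fast form Tnni2 passed the adjusted test while the slow form Tnni1, with the larger log2 fold change, did not. Tnni2 entered the test only through its level in the Piezo1 cKO libraries, and the difference between the forms is given with the ratios below. Tnni2 (chr7:142441808-142444410, plus strand, 8 exons) had 6, 2 and 4 counts in the control and 16, 24 and 12 in the Piezo1 cKO libraries, or 8.63, 2.23 and 4.72 CPM against 20.3, 31.7 and 15.9 CPM. Every Piezo1 cKO library held more than the highest control library, but no library held over 24 counts. The mean rose from 5.19 ± 3.22 to 22.6 ± 8.16 CPM (SD, n = 3), a 4.47-fold difference (95% interval 2.39 to 8.34) with a log2 fold change of 2.16 (SE 0.45) and an adjusted p of 0.00459 in edgeR. Tnni2 ranked 14 by p among all genes tested. The call was lost without the second Piezo1 cKO library (log2 fold change 1.84, edgeR adjusted p = 0.277) and in DESeq2 without its filter on mean counts (log2 fold change 2.15, adjusted p = 0.370).

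Tnni1 (chr1:135779434-135810989, plus strand, 10 exons) had 24, 2 and 17 counts in the control and 43, 138 and 43 in the Piezo1 cKO libraries. Its levels were 34.5, 2.23 and 20.1 CPM against 54.5, 182 and 57.0 CPM. The groups did not overlap, but the second library of each group stood apart, the control one below the floor and the Piezo1 cKO one far above its fellow libraries. The mean was 18.9 ± 16.2 in control and 97.9 ± 73.1 CPM in Piezo1 cKO libraries (SD, n = 3), and the log2 fold change of 2.44 (SE 0.95, 95% interval -0.10 to 4.98) did not pass the test in edgeR (adjusted p = 0.434). It was 1.63 without the second Piezo1 cKO library, 1.87 without the second control library, 1.05 without both and 3.15 without the first control library. The cardiac form Tnni3, which lies next to Tnnt1 and overlaps Dnaaf3 on the same strand, had 1, 0 and 0 counts in control and 1, 1 and 0 in Piezo1 cKO libraries. Both groups were at or below the floor, and Tnni3 was not tested.

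Of the troponin T genes, Tnnt2 was the most abundant and differed least. Tnnt2 (chr1:135836354-135852260, plus strand, 16 exons) had 171, 215 and 182 counts in the control and 182, 189 and 228 in the Piezo1 cKO libraries. The groups overlapped, with 246, 239.8 and 214.9 CPM against 230.7, 249.6 and 302.1 CPM. The mean was 233.5 ± 16.4 in control and 260.8 ± 37.0 CPM in Piezo1 cKO libraries (SD, n = 3), a 1.12-fold difference whose 95% interval reached from 0.924 to 1.35 (edgeR adjusted p = 0.703).

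The slow form Tnnt1 (chr7:4504570-4516382, minus strand, 14 exons) had 44, 11 and 28 counts in the control and 58, 147 and 104 in the Piezo1 cKO libraries. These corresponded to 63.3, 12.3 and 33.1 CPM against 73.5, 194 and 137.8 CPM, so that the highest control library and the lowest Piezo1 cKO library lay close together. The mean was 36.2 ± 25.6 in control and 135.2 ± 60.4 CPM in Piezo1 cKO libraries (SD, n = 3), with a log2 fold change of 1.96 (SE 0.66, 95% interval 0.19 to 3.73) that did not pass the adjusted test in edgeR (adjusted p = 0.378). Without both second libraries it was smaller, at 1.16, but edgeR called it (adjusted p = 7.3e-04).

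The fast form Tnnt3 (chr7:142498836-142516009, plus strand, 15 exons) had 64, 27 and 60 counts in the control and 102, 144 and 84 in the Piezo1 cKO libraries. In CPM the values were 92.0, 30.1 and 70.8 against 129, 190 and 111. The lowest library was again the second control and the highest the second Piezo1 cKO library. The mean was 64.3 ± 31.5 in control and 143.6 ± 41.3 CPM in Piezo1 cKO libraries (SD, n = 3), and the log2 fold change of 1.19 (SE 0.42, 95% interval 0.12 to 2.27) did not pass the adjusted test in edgeR (adjusted p = 0.377). Without the second control library the log2 fold change was smaller, at 0.83, but edgeR called it (adjusted p = 0.00194). The Prr33 locus, annotated as a lincRNA, overlaps Tnnt3 on the opposite strand.

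**Figure D2:**
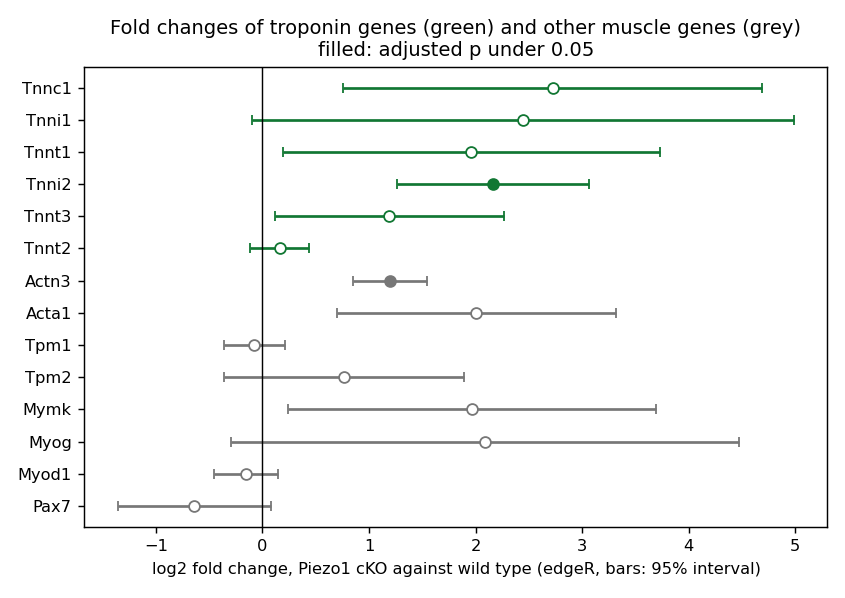
Log2 fold change of Piezo1 cKO against control libraries on the x axis, from edgeR, with 95% intervals as bars, for 6 troponin genes (green) and 8 other muscle genes (grey) on the y axis. Filled symbols passed the adjusted threshold of 0.05, which among the genes shown were Tnni2 (2.16) and Actn3 (1.20), and Tnnt2 has a short interval on both sides of 0.

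Across the libraries, 5 of the troponin genes varied together. Over the 6 libraries, the log2 CPM values of Tnnc1, Tnni1, Tnni2, Tnnt1 and Tnnt3 had pairwise Pearson correlations of 0.878 to 0.993, whereas those of Tnnt2 with the other 5 were 0.254 to 0.528. These points include the difference between the groups and share their libraries, so the correlations are a description. In the second control library all 5 genes were at their lowest, and in the second Piezo1 cKO library all 5 were at their highest.

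The 7 genes had the same order of mean level in both groups, with Tnnt2 highest, followed by Tnnt3, Tnnt1, Tnni1, Tnnc1, Tnni2 and Tnni3 in CPM. One count stands for 1 molecule whatever the length of the transcript. Divided by transcript length, the order of the mean levels was the same in the control libraries, but in the Piezo1 cKO libraries Tnnc1, at 99.6 CPM per kb, came before Tnni1, at 91.4 CPM per kb. Only for the step from Tnnt2 to Tnnt3 and that from Tnni2 to Tnni3 were the mean ± SD ranges in CPM apart in both groups. These ranges ignore that the genes were measured in the same libraries. Within libraries, Tnnt1 was above Tnni1 and Tnnc1 above Tnni2 in 3 of 3 libraries of each group. Tnnt3 was above Tnnt1 in 3 of 3 control and 1 of 3 Piezo1 cKO libraries, and Tnni1 above Tnnc1 in 2 of 3 and 3 of 3. Scaled by length, the mean level of Tnnt2 was 203 CPM per kb and that of Tnnt3 73.4 CPM per kb in the control libraries, against 227.1 and 163.7 CPM per kb in the Piezo1 cKO libraries.

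The fast and the slow forms were compared as the log2 ratio of their counts within each library, which does not depend on library size. For troponin I, the log2 ratio of Tnni2 to Tnni1 was -1.91, 0.00 and -1.96 in the control and -1.40, -2.50 and -1.80 in the Piezo1 cKO libraries. The second control library, in which the ratio rests on 2 counts of each gene, was the only one with as much fast as slow form. The mean was -1.29 ± 1.12 in control and -1.90 ± 0.56 in Piezo1 cKO libraries (SD, n = 3), a difference of -0.61 (exact two-sided permutation test, p = 0.6). Without the second control library this difference was 0.04, so its direction rested on that library.

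For troponin T, the log2 ratio of Tnnt3 to Tnnt1 was 0.54, 1.26 and 1.09 in the control and 0.81, -0.03 and -0.31 in the Piezo1 cKO libraries. The fast form was thus the more abundant in every control library, and the slow form in 2 of the 3 Piezo1 cKO libraries. The mean was 0.96 ± 0.38 in control and 0.16 ± 0.58 in Piezo1 cKO libraries (SD, n = 3), a difference of -0.80 (exact two-sided permutation test, p = 0.2). The groups overlapped, because the first Piezo1 cKO library had a higher ratio than the first control library. With 3 libraries against 3 the smallest two-sided p of this exact permutation test is 0.1, so it could not reach 0.05 for any such ratio.

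**Figure D3:**
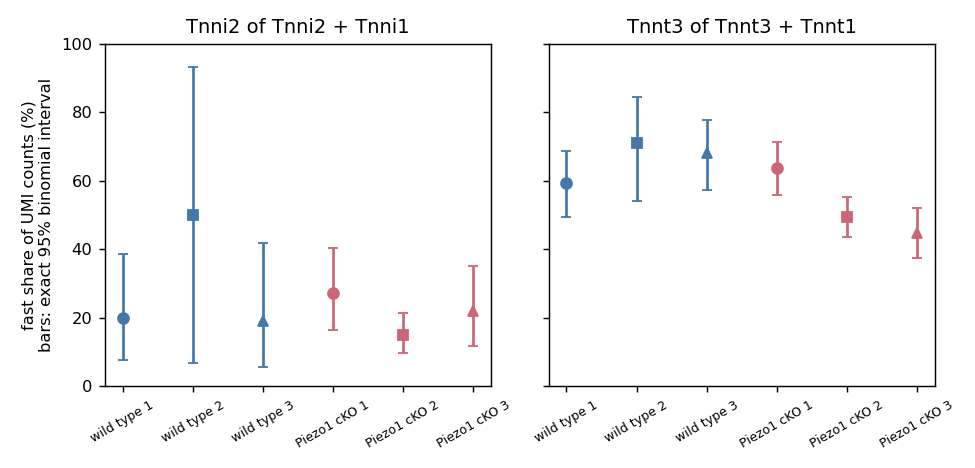
Share of the fast gene in the counts of the fast and the slow gene of troponin I (left) and troponin T (right), in % on the y axis, for each library on the x axis. Blue symbols are control and red symbols Piezo1 cKO libraries, bars are exact 95% binomial intervals for counting error, and the groups overlap in both panels.

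As a share of counts, the fast genes Tnni2 and Tnnt3 made up 50.7%, 69.0% and 58.7% of the counts of Tnni1, Tnni2, Tnnt1 and Tnnt3 in the control and 53.9%, 37.1% and 39.5% in the Piezo1 cKO libraries. The first control and the first Piezo1 cKO library overlapped, with exact 95% binomial intervals of 42.1% to 59.3% and 47.0% to 60.6%. The other 2 Piezo1 cKO libraries lay below all control libraries. The mean share was 59.5% ± 9.19 in control and 43.5% ± 9.08 in Piezo1 cKO libraries (SD, n = 3). Which genes were summed mattered. Without the most abundant gene of each form, which leaves Tnni2 and Tnni1, the share was 29.7% ± 17.6 against 21.3% ± 6.17, and of all troponin T counts, with Tnnt2 included, Tnnt3 made up 18.6% ± 6.88 in control and 26.7% ± 5.61 in Piezo1 cKO libraries, the opposite direction, with overlapping groups in both cases (SD, n = 3). Both forms were nevertheless higher in sum, with the fast genes at 69.5 ± 34.6 against 166.2 ± 49.5 CPM, a ratio of means of 2.39, and their slow counterparts Tnni1 and Tnnt1 at 55.1 ± 41.7 against 233.1 ± 128.5 CPM, a ratio of 4.23 (SD, n = 3). With Tnnc1, which has no fast counterpart here, the slow genes summed to 66.0 ± 44.8 against 304.9 ± 179.7 CPM, a ratio of 4.62. The second Piezo1 cKO library alone held 505.8 CPM of these 3 slow genes, against 159.7 and 249.1 CPM in its fellow libraries.

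The share of Tnnt2 among the troponin T counts did not overlap between the groups. This share restates the levels above, where Tnnt2 differed little and Tnnt1 and Tnnt3 were higher, and is not a further result. Neither this share nor that of the 6 other genes was planned. Tnnt2 made up 61.3%, 85.0% and 67.4% of the counts of the 3 troponin T genes in the control and 53.2%, 39.4% and 54.8% in the Piezo1 cKO libraries. Every Piezo1 cKO library was below every control library, and the means were 71.2% ± 12.3 and 49.1% ± 8.49 (SD, n = 3). The exact 95% binomial intervals of the nearest libraries, 55.3% to 67.0% for the first control and 49.9% to 59.7% for the third Piezo1 cKO library, overlapped. Of all troponin counts, the 6 genes other than Tnnt2 took 46.4%, 18.3% and 39.7% in the control and 57.4%, 74.5% and 55.5% in the Piezo1 cKO libraries. All 7 genes together held 319, 263 and 302 counts in control and 427, 741 and 512 in Piezo1 cKO libraries.

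**Figure D4:**
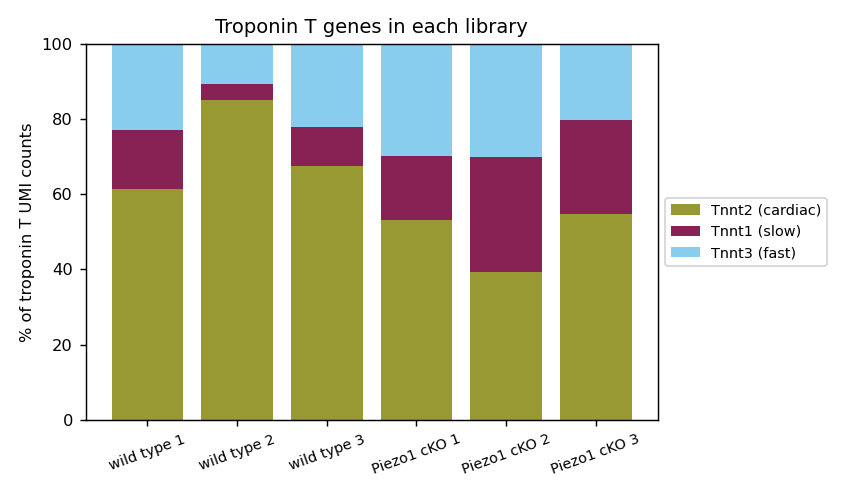
Share of Tnnt2 (olive), Tnnt1 (purple) and Tnnt3 (light blue) in the UMI counts of the 3 troponin T genes, in % on the y axis, for each of the 6 libraries on the x axis. The Tnnt2 part covers 61.3% to 85.0% of the bar in the control and 39.4% to 54.8% in the Piezo1 cKO libraries.

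Several troponin genes are neighbours in the genome. Tnni2 and Tnnt3 lie 54425 bases apart on chromosome 7 with Lsp1 between them, Tnni1 and Tnnt2 lie 25364 bases apart on chromosome 1 with Lad1 between them, and Tnnt1 and Tnni3 are separated by 1922 bases on chromosome 7. In the 2 pairs with both genes tested, the fold changes were unequal in size. Tnni1 had a log2 fold change of 2.44 and Tnnt2 of 0.16, and the log2 ratio of Tnni1 to Tnnt2 was -4.21 ± 1.95 in control and -1.64 ± 1.04 in Piezo1 cKO libraries (SD, n = 3) with no overlap (exact two-sided permutation test, p = 0.1, the smallest possible). This difference of 2.57 was 1.46 without the second control library, which held 2 counts of Tnni1. The ratio of Tnni2 to Tnnt3 was also higher in every Piezo1 cKO library, at -2.65 ± 0.10 against -3.51 ± 0.22 on the log2 scale (p = 0.1 in the same exact test). These 2 ratios were among 9 computed after the values had been seen, beside the 2 fast to slow ratios.

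Within 100000 bases of the troponin genes, 39 other genes had a row in the count table and 18 were tested. Of these, edgeR called 2 higher and 0 lower, both beside Tnnt3, against 0.468% of all genes tested called higher, and they are named because of this count. H19, an imprinted gene for a long non-coding RNA, had 101, 72 and 123 counts in control and 223, 200 and 163 in Piezo1 cKO libraries, and its log2 fold change was 1.05 (SE 0.17, edgeR adjusted p = 3.9e-04). Lsp1, which encodes an actin-binding protein of leukocytes, had 40, 34 and 51 counts in control and 72, 73 and 55 in Piezo1 cKO libraries, a log2 fold change of 0.75 (SE 0.20, edgeR adjusted p = 0.0438). The groups overlapped for neither gene. Lsp1 kept its call in 6 of 16 alternative settings and H19 in 15 of 16.

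The genes of the filament to which troponin binds were read from a list of 21 partners, of which 12 were tested. In edgeR 1 rose, against 0.468% of all genes tested, and 0 fell. At an unadjusted p under 0.05 in edgeR 2 were higher, against 6.14% of all genes tested, and 1 was lower. A positive log2 fold change was found for 7 and a negative one for 5. The median was 0.32, against a median of 0.0021 over all genes tested. The positive ones include Actc1, which passed the filter on low counts only through the Piezo1 cKO libraries. The gene that rose was Actn3, which encodes the fast-fibre alpha-actinin of the Z-disc, from 64.0 ± 17.1 to 147 ± 16.0 CPM (SD, n = 3, log2 fold change 1.20, edgeR adjusted p = 1.0e-05). DESeq2 also called Acta1, the skeletal muscle actin, with 46, 57 and 80 counts in control and 133, 353 and 205 in Piezo1 cKO libraries (adjusted p = 0.00485), but edgeR did not (log2 fold change 2.01, adjusted p = 0.241). The 4 tropomyosin genes, whose products bind troponin T, were abundant, and none was called by edgeR or DESeq2 (0 higher and 1 lower at an unadjusted p under 0.05 in edgeR). Tpm1 was measured at 1040 ± 137 CPM in control and 984 ± 54.6 CPM in Piezo1 cKO libraries (SD, n = 3), a log2 fold change of -0.08 (95% interval -0.36 to 0.21, edgeR adjusted p = 0.898). Tpm2 was higher without overlap, at 235.8 ± 111.7 against 396.9 ± 44.6 CPM (SD, n = 3, log2 fold change 0.77, edgeR adjusted p = 0.579). Tpm3 and Tpm4 were lower without overlap, with log2 fold changes of -0.29 and -0.27 (edgeR adjusted p = 0.392 and 0.429).

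Of the 23 thick filament genes only 3 were tested. They had positive log2 fold changes with a median of 1.18, and edgeR and DESeq2 each called 0 of them. At an unadjusted p under 0.05 edgeR found 2 higher, Mylpf and Myl4, against 6.14% of all genes tested. Both passed the filter on low counts only through the Piezo1 cKO libraries, so these signs and counts are a description of the genes. Mylpf, the fast myosin regulatory light chain, had 18, 5 and 23 counts in control and 37, 191 and 61 in Piezo1 cKO libraries (log2 fold change 2.72, edgeR adjusted p = 0.415), with the same lowest and highest libraries as the troponin genes. Titin, Ttn, had the highest mean level of the list over the 6 libraries, though not within the Piezo1 cKO group, where Mylpf was higher, and overlapped between groups (log2 fold change 0.65, edgeR adjusted p = 0.745). Among the thick filament genes too low to be tested, Myl1, a fast myosin light chain that is also on the fast fibre list, had 2, 0 and 2 counts in control and 5, 55 and 14 in Piezo1 cKO libraries, and Myh3, the embryonic myosin heavy chain, 1, 0 and 0 against 9, 35 and 4, both without overlap. Both fast fibre genes tested of 11 listed, Actn3 and Mylpf, had positive log2 fold changes, with a median of 1.96. Since Mylpf passed the filter only through the Piezo1 cKO libraries, this median is not compared with that of the slow genes. Both slow fibre genes tested of 10 listed, Tpm3 and Atp2a2, had negative log2 fold changes, with a median of -0.22. Neither was called by edgeR or DESeq2 (Tpm3 had an unadjusted p under 0.05 in edgeR). Tpm3 and Atp2a2 are also expressed outside muscle. Of the slow fibre genes too low to be tested, Mybpc1 had 5 counts in all control and 16 in all Piezo1 cKO libraries, Casq2 0 and 15, and Csrp3 4 and 7. The groups overlapped for all 3, and the second Piezo1 cKO library alone held 14, 10 and 6 of these counts.

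Among 16 genes of calcium release and uptake, whose calcium the troponin complex senses, 5 were tested and 1 rose, against 0.468% of all genes tested. Jph2, which encodes a junctophilin that holds the sarcoplasmic reticulum to the surface membrane, had 27, 18 and 43 counts in control and 65, 59 and 42 in Piezo1 cKO libraries, with the lowest Piezo1 cKO library just below the highest control library in counts but above it in CPM (log2 fold change 0.99, SE 0.24, edgeR adjusted p = 0.0237). This call was kept in 9 of the 15 alternative settings that gave Jph2 an adjusted p. The most abundant gene of the list, Atp2a2, which encodes a calcium pump of the reticulum, had a log2 fold change of -0.15 (edgeR adjusted p = 0.708).

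Of 20 regulators of myogenesis and fibre type 14 were tested, of which 12 had a positive and 2 a negative log2 fold change, with a median of 0.19. None was called by edgeR or DESeq2. At an unadjusted p under 0.05 in edgeR 3 were higher, against 6.14% of all genes tested, and 0 lower. Myog, Mymk and Nfatc1 passed the filter on low counts only through the Piezo1 cKO libraries, and Mymk and Nfatc1 were among those 3. These signs and counts are therefore a description of the genes. Myog, which encodes the differentiation factor myogenin, had 40, 3 and 45 counts in control and 63, 203 and 92 in Piezo1 cKO libraries. The groups did not overlap, and the log2 fold change of 2.09 (95% interval -0.29 to 4.47) did not pass the test in edgeR (adjusted p = 0.468). The level of Myod1 averaged 1459 ± 102.5 CPM in control against 1310 ± 204.6 CPM in Piezo1 cKO libraries (SD, n = 3, log2 fold change -0.15, edgeR adjusted p = 0.743).

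**Figure D5:**
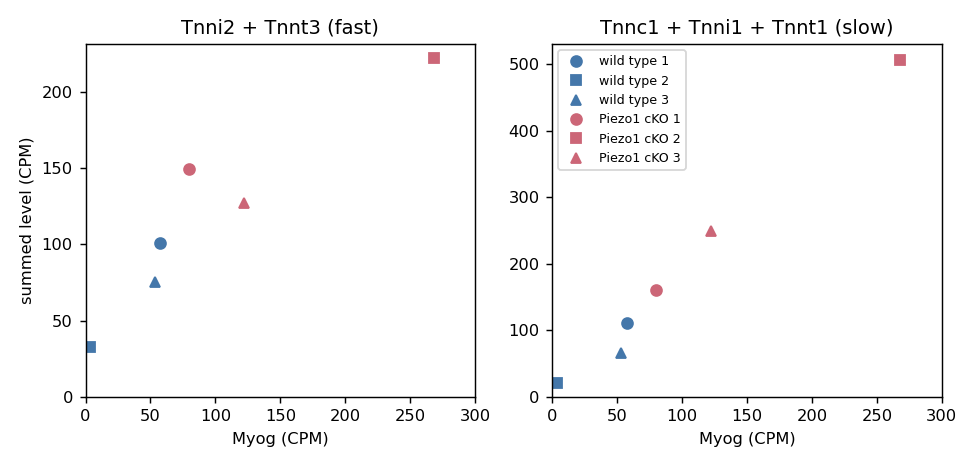
Summed level of the fast troponin genes Tnni2 and Tnnt3 (left) and of the slow genes Tnnc1, Tnni1 and Tnnt1 (right), in CPM on the y axis, against the level of Myog, in CPM on the x axis, for the 6 libraries. The second control library is lowest on every axis, with 3.35 CPM of Myog, and the second Piezo1 cKO library highest, with 268 CPM.

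Relative to Myog, the groups overlapped for each troponin gene compared. The log2 ratio to Myog differed by 0.13 for Tnni1, -0.11 for Tnnc1, -0.47 for Tnni2, -0.53 for Tnnt1 and -1.33 for Tnnt3 (Piezo1 cKO minus control, n = 3 in each), and the smallest exact two-sided permutation p was 0.3. In the second control library Myog had 3 counts, so the ratios there are imprecise.

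The genes most like the troponin genes over the 6 libraries were chosen by the Pearson correlation of log2 CPM with the summed counts of the fast or of the slow genes. For the fast sum these were Dcxr (0.993), Ddx17, Pcmtd1, Pink1, Lrrn1, Mymk, Rchy1, Pgam2, Trp53inp2 and Tpd52l1 (0.984). For the slow sum they were Cdkn2b (0.994), Igfbp2, Cavin4, Mymk, Lrrn1, Kremen1, Pttg1, Lrp12, Spsb2 and Tppp3 (0.985). Both sets held Mymk, which encodes the fusion protein myomaker, and Lrrn1. Mymk had 32, 8 and 20 counts in control and 55, 116 and 54 in Piezo1 cKO libraries, and its log2 fold change of 1.97 did not pass the test in edgeR (adjusted p = 0.370). Since both sums differed between the groups, genes chosen in this way tend to differ between them too, and the calls below describe these genes only. The correlation within the groups, after their means were removed, was 0.960 to 0.997 for the genes of both sets. It comes from the same libraries by which the genes were chosen, so it is a description too. Among the genes like the fast sum, edgeR called Pink1, a mitochondrial kinase (log2 fold change 1.52, adjusted p = 9.1e-04), Tpd52l1 (1.42, adjusted p = 0.0208) and Trp53inp2 (0.99, adjusted p = 0.0473). Among those like the slow sum it called Igfbp2, a binding protein of insulin-like growth factors (1.23, adjusted p = 0.0141) and Tppp3 (adjusted p = 0.0248). Myog followed at rank 39 for the fast and rank 33 for the slow sum.

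Markers of other cell types were read in the same libraries, since the sort could have let such cells through. The 5 fibro-adipogenic markers summed to 84.8, 198.5 and 120.4 CPM in control and to 57.0, 42.3 and 62.3 CPM in Piezo1 cKO libraries, lower without overlap, and most of this was Cd34, which quiescent MuSCs also express. Cd34 had a log2 fold change of -1.59 (adjusted p = 0.181 in edgeR and 8.2e-04 in DESeq2), while Pi16 was at 0 in every library. Ly6a, the gene of the Sca1 antigen on which the sort selected against such cells, went the other way without overlap, with 2, 2 and 3 counts in control and 5, 8 and 9 in Piezo1 cKO libraries, and was too low to be tested. The mural markers, 5 of 6 with a row and led by Cspg4 (log2 fold change 0.76, edgeR adjusted p = 0.143), summed to 44.6, 32.3 and 40.1 CPM against 59.6, 64.7 and 94.1 CPM, higher without overlap. Cd34 was highest in the second control library, in which the 5 varying troponin genes were lowest. Endothelial markers (4 of 5 with a row) summed to at most 18.6 CPM and haematopoietic markers (3 of 7) to at most 27.9 CPM in any library, with overlapping groups. Their most abundant genes were Tek and Cd68. The 27.9 CPM was in the second control library, where Lyz2 had 11 counts, against 0 or 1 in each other library. The part of the fibro-adipogenic, mural and haematopoietic markers in the troponin differences was not tested.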

How the data were processed

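RNA-seq of cultured MuSCs was analysed in 3 control and 3 Piezo1 cKO libraries, which were grouped by their labels. Whether the libraries came from separate mice was not given in the sources used here, so p-values measure the spread between these libraries, which may be technical. The authors reverse transcribed 500 pg of RNA per library with oligo-dT primers, used 12 PCR cycles, read 150 bp paired ends, mapped them to GRCm38 and counted UMIs per gene. Per the submitters' processing notes, STAR 2.7.9a, featureCounts 2.0.1 and UMI-tools 1.1.1 were used. The deposited counts were not normalised, and the handling of strand and of reads mapping to several places was not given in the sources used here.

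Counts were tested in R 4.3.3 with edgeR 4.0.16 (TMM, robust quasi-likelihood test, filterByExpr with a minimum count of 10, Benjamini-Hochberg adjustment over 8551 genes, called under 0.05). Piezo1 failed the filter and was kept for its own test. Ratios used counts plus 0.5 and exact two-sided permutation tests, and correlations used log2 CPM with a prior count of 2. Intervals of shares are exact (Clopper-Pearson, 95%) and, like the floor of 3 counts, cover counting error only. Alternatives were DESeq2 1.42.0, limma 3.58.1 (voom, and cyclic loess), other filters and size factors, a replicate block and leaving out libraries. Within-group pairs of libraries differed beyond sampling noise (chi-square per degree of freedom 1.64 to 2.61). The code was tested on simulated data.

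The members, gene lists and tests were chosen with earlier results of these data known. Named were the troponin genes, Piezo1, Myog, Myod1, Pax7, each list's called members and most abundant gene, and the 10 genes most like each troponin sum. Tpm2, Tpm3, Tpm4, Actc1, Mylpf, Myl1, Myl4, Myh3, Mybpc1, Casq2, Csrp3, Nfatc1, Cdh15, Vcam1, Sdc4, Ly6a, Lyz2 and the genes near the troponin loci were added after their values were seen. Because Tnnc2 was not analysed here, the ratios and shares of fast and slow forms cover troponin I and T only, while the slow sum of the likeness sets and of the plot against Myog includes Tnnc1. Loci are those of GENCODE vM21. The result of 1 marker list is not reported here.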

Additional observations from a re-analysis of the deposited data

How the results depend on the processing

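All 6 troponin genes tested kept a positive log2 fold change in every alternative that gave a value, with Tnnt2 between 0.04 and 0.24 and Tnni2 between 1.46 and 2.66. Which genes were called did not hold as well. Against 1 troponin gene called (Tnni2), cyclic loess called 2 (Tnnc1 and Tnni2, with 17 of 8551 genes called higher), DESeq2 with default settings 0, limma-voom 5 (all but Tnnt2, against 0.561% of all genes called higher), edgeR without a filter 3 (Tnnc1, Tnni2 and Tnnt3, with 82 of 19247) and edgeR with at least 10 counts in every library 0 of the 3 it could test (with 57 of 7510). Leaving out 1 library moved the log2 fold change to between 1.99 and 3.08 for Tnnc1, 1.63 and 3.15 for Tnni1, 1.52 and 2.58 for Tnnt1 and 0.83 and 1.52 for Tnnt3. It gave 1 to 2 called troponin genes. Over all genes, between 4 of 8812 (without the second Piezo1 cKO library) and 101 of 8795 (without the first) were called higher in these fits. Tnni2 lost its call without the second Piezo1 cKO library, when Tnnc1 gained it. Leaving out both second libraries, chosen after seeing the data, gave 2 (Tnnc1 and Tnnt1, with 22 of 8598 genes called higher). The causes were not tested.

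Over all genes, 67 were called, against 72 with limma-voom (48 higher and 24 lower), 32 with cyclic loess, 27 with DESeq2 (12 higher and 15 lower, where edgeR had 40 and 27), 19 with DESeq2 without its filter on mean counts (added after seeing the data), 129 without a filter and 124 at an adjusted p under 0.1. Leaving out 1 library gave 6 (without the second Piezo1 cKO library) to 174 (without the first). With total counts only, 49 of the 67 called genes were higher in place of 40, with a median log2 fold change of 0.08. Same-numbered libraries did not deviate together (correlations -0.14, -0.20 and 0.01), which gave no sign of pairing by number. With 3 libraries per group this cannot exclude a pairing. With a replicate block edgeR called 46 genes, with 2 troponin genes among them, Tnnc1 (adjusted p = 0.00463) and Tnni2 (adjusted p = 0.0256). The ratio of Tnnc2 to Tnnc1 was not run. The difference in the log2 ratio of Tnni2 to Tnni1 lay between -0.94 and 0.04 when libraries were left out. At 2 to 24 counts, Tnni2 and the low control libraries limit every ratio.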
